A study of Mus musculus with 4 samples.

Results

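The genes described here are the potassium channel genes of the mouse other than the inward rectifiers, measured in HL-1 cells with and without rapid electrical stimulation. They were taken by name: every probe set annotated to exactly 1 gene symbol that begins with Kcn but not with Kcnj. This gave 136 of 34945 single-symbol probe sets and 69 of 18193 genes. Of the 69 members, 3 are non-coding RNAs that share the name: Kcnq1ot1, Kcnmb4os1 and Kcnmb4os2. HL-1 is a line of atrial muscle cells, derived from an atrial tumour of a transgenic mouse, that keeps contracting in culture. All samples were grown to confluence in Claycomb medium. In 2 samples the cells were then stimulated at 300 beats per minute for 24 h, about 1.5 to 2 times the control rate, and 2 control samples contracted spontaneously without stimulation. Total RNA of each sample was hybridised to 1 array. No sample was paced at the control rate, so the faster rate and the electrical stimulus itself cannot be told apart. All samples came from this 1 line. The labels number the stimulated samples as experiments 1 and 2, and do not say whether the controls were separate cultures. The p-values therefore set each change only against the spread of these samples, pooled in part over genes, and that spread may be technical.

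Potassium channels let potassium leave the cell and so bring the membrane back to rest after each action potential. Voltage-gated channels (Kcna to Kcnd, Kcnh and Kcnq) carry the repolarizing currents of heart muscle: the transient outward current (Kcnd), the ultrarapid (Kcna5), rapid (Kcnh2) and slow (Kcnq1 with Kcne1) delayed rectifiers. The Kcnk channels carry background leak currents, and the Kcnn and Kcnma1 channels open with cytosolic calcium. Accessory subunits of the Kcnab, Kcne, Kcnip and Kcnmb groups bind the pore subunits and alter their gating or their transport to the surface.

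Values are log2 expression, and a change is stimulated minus control on that scale. With stimulation 1 of the 37 tested members fell, Kcng2, and 1 rose, Kcnu1. Kcng2, a silent subunit that forms no channel alone and modifies other voltage-gated channels, fell by 0.89 ± 0.16 (SE), or 1.85-fold. Kcnu1, the pore subunit of a channel known from sperm, rose by 0.94 ± 0.19, or 1.92-fold, from a level close to background. A member was tested when its mean over the 4 arrays was at or above 4.39, a filter set at the 40th percentile of probe set levels, and called when its adjusted p in limma was below 0.05. The same test called 5.53% of all 13058 genes tested, 3.91% as higher and 1.62% as lower. At an unadjusted p below 0.05 there were 4 of the 37 members, against 25.6% of all genes tested; the other two were Kcnh2 and Kcnn1.

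The file holds no detection calls, so levels were set against 81 probe sets of olfactory, vomeronasal and bitter taste receptors, genes not thought to be used by heart muscle. These had a median of 3.47, and 95% of them lay below 4.99, called the sensory receptor level here. Of the 69 members, 32 lay below the filter level, 13 between the filter and the sensory receptor level, and 24 above it. The share past the filter was 53.6%, against 71.8% of all genes. The members Kcng2, Kcnh2, Kcnh3, Kcnk3 and Kcnab2 read above all 81 sensory receptor probe sets, of which the brightest stood at 6.78. Probe sets differ in how well they bind, so the order of these levels is not an order of transcript abundance. Next to the filter level, Kcns1 lay just inside it at 4.47 and Kcng4 just outside at 4.38.

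The labelled cell type was checked with marker genes. All 12 atrial muscle markers lay above the sensory receptor level, at up to 13.7 for Myl7. Of them, limma called 3 as lower, Tbx5 (-1.51), Ryr2 (-0.85) and Gata4 (-0.74), and 1 as higher, Nppa (2.00). Over all genes tested, 1.62% were called lower and 3.91% higher. Sln (-1.78), Pln (-1.36) and Myh6 (-1.03) were lower without passing, at limma adjusted p of 0.078 to 0.10. The median change of the 12 was -0.61. Their mean level was 11.32 and 11.47 in controls, 10.63 in stimulated 1 and 11.07 in stimulated 2, and the sum of their linear values ran from 63411 to 64328 in controls and from 50074 to 60583 with stimulation. Kcng2, Kcnh2 and the brightest Kcnk3 probe set were also lowest in stimulated 1. Kcnn1 and the other Kcnk3 probe sets past the filter were instead lowest in stimulated 2. The part of the muscle genes' lower level in these changes was not tested, and fewer cells of a type cannot be told apart from less RNA per cell. Of other cell types' markers, 7 of 8 for fibroblasts, 4 of 5 for endothelium, 2 of 4 for leukocytes and 5 of 8 for neurons did not reach the sensory receptor level. Of the leukocyte markers Ptprc read 3.24 and Cd3e 6.40. Of the neuron markers Snap25 read 2.84, while Syt1 (6.58), Rbfox3 (6.44) and Elavl3 (5.64) lay above that level. Cd68, a lysosomal protein of macrophages and other cells, rose by 2.08. Of 4 smooth muscle markers 1, Myh11 (4.09), did not reach it, while Acta2 read 13.67, Tagln 12.25 (change 0.90, limma adjusted p = 0.0884) and Cnn1 10.74. Of 3 ventricle markers 2 did not reach it, and Myl2 read 9.47 (change -0.65, limma adjusted p = 0.132). Differences between 3′ and 5′ probe sets of actin were 0.22 to 0.28 in controls and 0.25 to 0.30 with stimulation. Those of Gapdh were -0.097 and -0.068 in controls and -0.053 and -0.033 with stimulation, without overlap, and their part in the results was not tested.

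**Figure D1:**
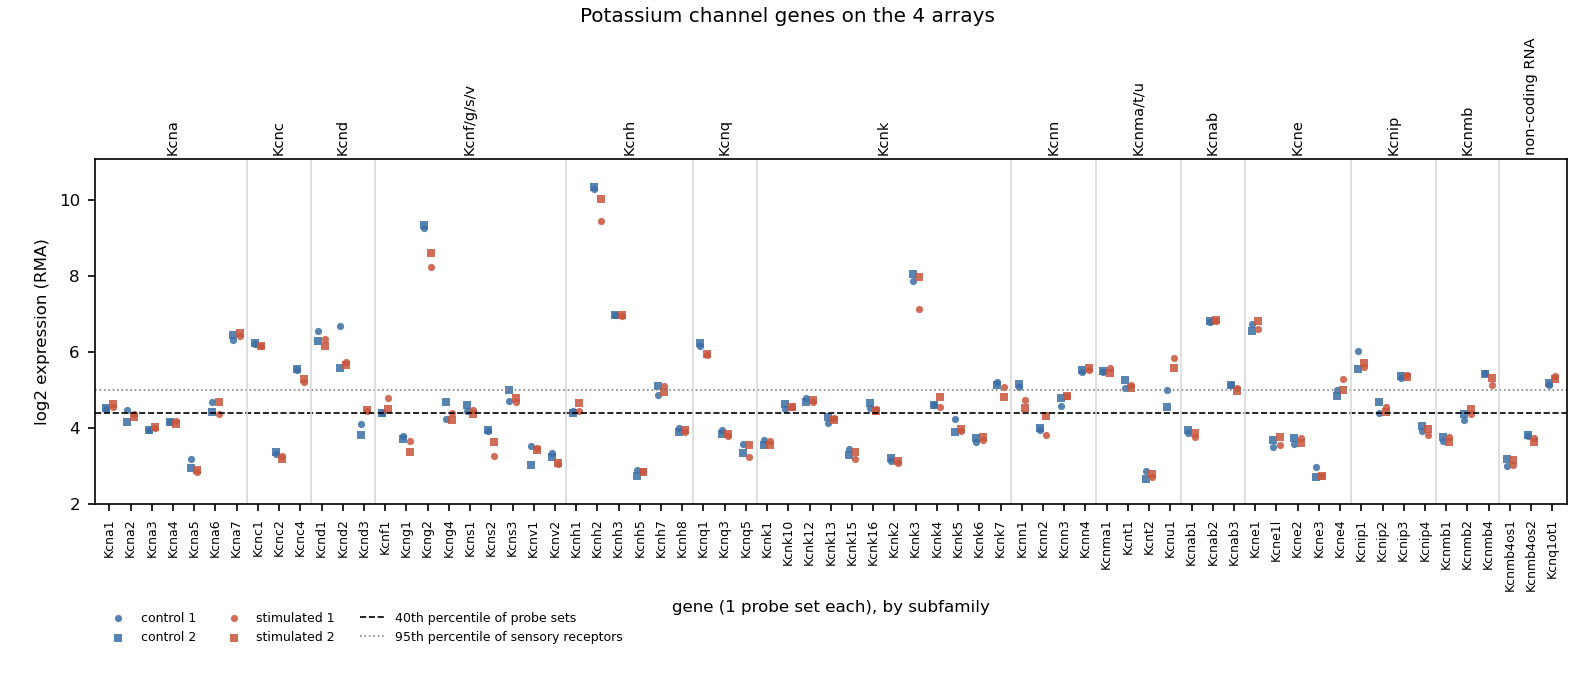
Log2 expression (vertical axis) of the 69 members, 3 of them non-coding RNAs, with 1 probe set per gene and genes grouped by subfamily. The 2 control arrays are blue and the 2 stimulated arrays red. The dashed line is the filter level of 4.39 and the dotted line the sensory receptor level of 4.99; 32 genes lie below the first as a mean over the arrays, while Kcnh2, Kcng2 and Kcnk3 stand well above both.

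Every subfamily measured had members below the filter. The counts past it were 3 of 7 for Kcna, 2 of 3 for Kcnc, 2 of 3 for Kcnd and 4 of 6 for Kcnh. They were 1 of 3 for Kcnq, 6 of 12 for Kcnk, 3 of 4 for Kcnn, and 3 of 4 for Kcnma1 with Kcnt and Kcnu1. The silent subunits Kcnf, Kcng, Kcns and Kcnv had 4 of 9, the accessory subunits 8 of 15 and the non-coding RNAs 1 of 3. Of 31 voltage-gated pore and silent subunits, 10 lay above the sensory receptor level, as did 7 of the 15 accessory subunits. RefSeq lists 14 further genes of these names that are not analysed here.

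Several genes that carry known currents of heart muscle read in the range of the sensory receptors. Kcna5, the atrial ultrarapid delayed rectifier, read 3.18 and 2.93 in controls and 2.84 and 2.88 with stimulation. Kcna4, a fast-inactivating channel, read 4.15 on both control arrays, and 4.18 and 4.11 with stimulation. Kcnk2, a stretch-sensitive leak channel, stayed between 3.08 and 3.19, and Kcnn2, a small-conductance calcium-activated channel, between 3.82 and 4.31. Kcnd3, a transient outward channel, read 4.09 and 3.81 in controls and 4.44 and 4.46 with stimulation, so that its groups did not overlap, but its mean of 4.20 kept it out of the test. On its other 3 probe sets the groups overlapped. RMA compresses differences near the bottom of the scale, so a change there can be understated.

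Promoter sequences are shown for 3 genes whose probe sets read differently: Kcnh2, well above the sensory receptor level, Kcnd2, between 5.57 and 6.69, and Kcna5, below the filter. Each window runs from 250 bases before to 50 after the gene's start in RefSeq (GRCm38.p6) and is written 5′ to 3′ on the gene's strand. Capitals mark GC boxes, the letters GGGCGG or their reverse complement. The window of Kcnh2 (chr5:24329542-24329841, minus strand) held 3 GC boxes and 19 CpG dinucleotides. That of Kcnd2 (chr6:21215096-21215395, plus strand) held 1 and 26, and that of Kcna5 (chr6:126535506-126535805, minus strand) held 0 and 4. These 3 do not set an order for the others. Kcna4, below the filter, held 3 GC boxes and 20 CpG, and Kcna7, above the sensory receptor level, held 0 and 4. Counts over all members with a window follow the sequences.
Kcnh2: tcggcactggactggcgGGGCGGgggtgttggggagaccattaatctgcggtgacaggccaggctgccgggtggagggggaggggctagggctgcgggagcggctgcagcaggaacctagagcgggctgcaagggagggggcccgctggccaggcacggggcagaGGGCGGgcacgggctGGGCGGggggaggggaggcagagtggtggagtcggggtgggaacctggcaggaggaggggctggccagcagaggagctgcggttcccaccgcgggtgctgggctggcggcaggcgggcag
Kcnd2: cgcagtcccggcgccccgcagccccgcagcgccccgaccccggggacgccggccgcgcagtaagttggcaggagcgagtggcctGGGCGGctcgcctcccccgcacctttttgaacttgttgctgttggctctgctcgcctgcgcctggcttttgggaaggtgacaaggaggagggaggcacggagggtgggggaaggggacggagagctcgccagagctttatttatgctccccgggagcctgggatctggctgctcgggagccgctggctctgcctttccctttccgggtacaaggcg
Kcna5: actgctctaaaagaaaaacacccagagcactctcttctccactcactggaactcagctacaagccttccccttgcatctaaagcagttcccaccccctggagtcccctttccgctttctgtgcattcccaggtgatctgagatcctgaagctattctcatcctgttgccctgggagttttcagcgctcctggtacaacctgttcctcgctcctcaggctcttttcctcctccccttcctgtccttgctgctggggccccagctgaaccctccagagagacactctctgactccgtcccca

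Promoter windows were found for 51 of the 69 members, and for a gene with several starts the window with most CpG was used. The median number of CpG was 19 in the 15 members above the sensory receptor level, 17 in the 12 between it and the filter, and 12 in the 24 below the filter. Over all genes the medians of the same classes were 22, 10 and 6. A GC box stood in 12 of the 15, 7 of the 12 and 12 of the 24 windows, against 67.7%, 43.4% and 32.4% of all genes and 35.7% of all 32851 windows. The letters TATAAA, searched on both strands, were in 0 of the 51 windows, against 9.36% of genes and 13.6% of all windows. These are descriptions of letters in 1 window per gene, and nothing about a factor follows from them.

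Among the voltage-gated pore subunits, Kcnh2 encodes the channel of the rapid delayed rectifier current. Its probe set (1449544_a_at) read 10.31 and 10.34 in controls and 9.46 and 10.04 with stimulation. Both stimulated arrays lay below both controls, but they differed from each other by as much as the groups did. The change was -0.57 ± 0.21 (SE; limma adjusted p = 0.153, 95% interval -1.08 to -0.07). It was -0.28 without stimulated 1 and -0.86 without stimulated 2. The other Kcnh members past the filter were Kcnh1, Kcnh3 and Kcnh7, with changes of -0.0045 to 0.11. Kcnh3, a channel best known from brain, read between 6.95 and 6.99 on all 4 arrays.

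Kcnq1, the pore subunit of the slow delayed rectifier, read 6.16 and 6.24 in controls and 5.92 and 5.96 with stimulation. These groups did not overlap, and the change was -0.26 ± 0.12 (limma adjusted p = 0.243). Kcnq3 and Kcnq5, channels of neuronal M-type currents, lay below the filter. Kcne1, the partner of Kcnq1, read 6.74 and 6.56 in controls and 6.62 and 6.83 with stimulation, with overlapping groups and a change of 0.074 ± 0.14. Its other probe set past the filter also overlapped between groups.

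Both Kcnd genes tested, of the transient outward type, were lower without passing the test. Kcnd2 read 6.69 and 5.57 in controls and 5.73 and 5.66 with stimulation, so the groups overlapped and control 1 alone stood high. The change of -0.44 ± 0.35 (limma adjusted p = 0.496) became 0.12 without control 1 and -0.999 without control 2. Its dimmer probe set past the filter read 5.18 and 4.48 in controls and 4.38 and 4.23 with stimulation, again with control 1 the highest but with no overlap. Kcnd1 read 6.55 and 6.30 in controls and 6.35 and 6.17 with stimulation, a change of -0.17 ± 0.15. Kcnip2, the calcium-binding subunit that heart muscle needs for this current, lay near the filter level at 4.51, with a change of -0.064 ± 0.15.

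Among the fast-gating Kcnc genes, Kcnc4 and Kcnc1 did not overlap between groups, as was so for 55.3% of all genes tested. Their changes were -0.28 ± 0.12 and -0.062 ± 0.12. Kcnc4 read 5.53 and 5.55 in controls and 5.22 and 5.29 with stimulation, and its other probe set past the filter had a change of -0.26 with no overlap. Of the Shaker-type Kcna genes, Kcna7, a channel of heart and skeletal muscle, read 6.32 and 6.45 in controls and 6.42 and 6.51 with stimulation. The changes of Kcna7 and Kcna1 were 0.080 ± 0.13 and 0.083 ± 0.12.

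**Figure D2:**
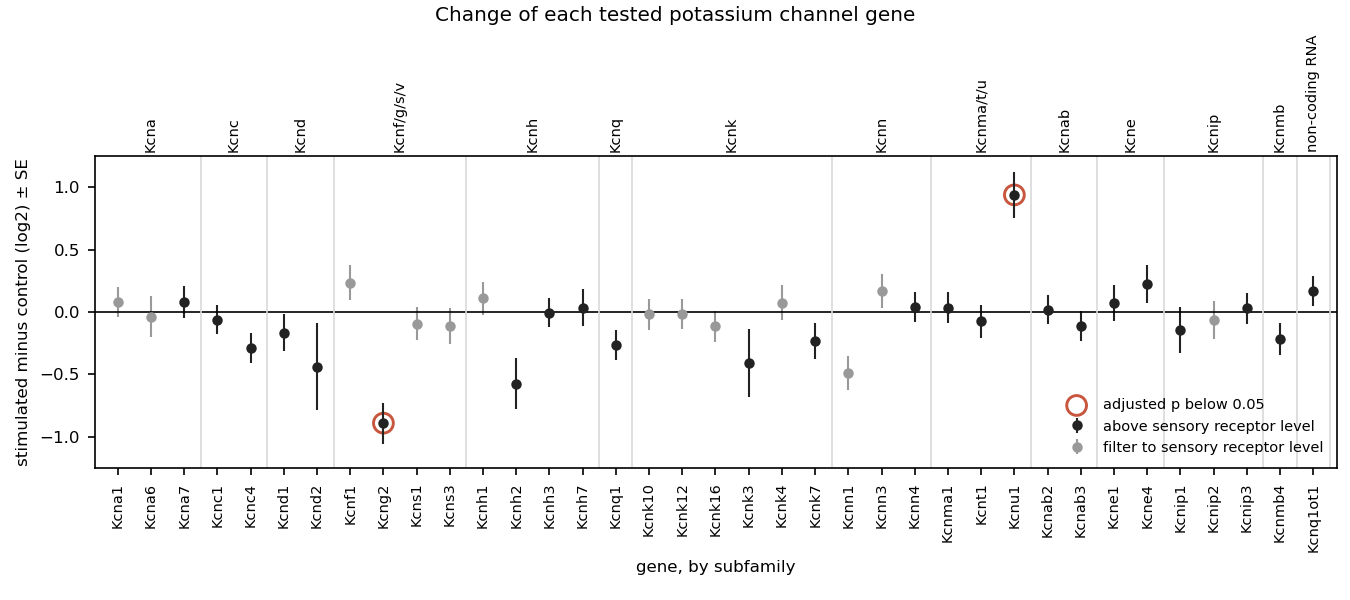
Change of each of the 37 tested members, 1 of them a non-coding RNA, grouped by subfamily. The vertical axis is stimulated minus control on the log2 scale, and points have the standard error of the fit. Grey points lie between the filter and the sensory receptor level. The circled genes, Kcng2 at -0.89 and Kcnu1 at 0.94, passed the test, and 29 of the 37 lay within 0.25 of zero.

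Kcng2 was the called member among the silent subunits. Its single probe set (1434838_at) read 9.28 and 9.35 in controls and 8.23 and 8.62 with stimulation. The groups were well apart, and the gap exceeded the difference between the stimulated arrays. Means were 9.31 ± 0.051 and 8.42 ± 0.27 (SD, n = 2), and the change of -0.89 ± 0.16 had a limma adjusted p = 0.0412. With 1 array left out the change stayed between -1.08 and -0.70, but the call was lost each time. The adjusted p was 0.174 without control 1, 0.200 without control 2, 0.128 without stimulated 1 and 0.0549 without stimulated 2. The other silent subunits tested, Kcnf1, Kcns1 and Kcns3, lay between the filter and the sensory receptor level, with changes of -0.11 to 0.24.

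Leak channels of the Kcnk group had 1 member far above background, Kcnk3, an acid-sensitive channel of atrial muscle. It has 3 probe sets past the filter. The brightest (1425341_at) read 7.87 and 8.06 in controls and 7.14 and 7.98 with stimulation, and its groups overlapped. Its change of -0.41 ± 0.28 (limma adjusted p = 0.422) was 0.012 without stimulated 1 and -0.83 without stimulated 2.

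The other Kcnk3 probe sets did not overlap between groups. One (1426058_a_at) read 5.49 and 5.89 in controls and 5.24 and 5.18 with stimulation, a change of -0.48 ± 0.17. The dimmest (1425342_a_at) read 5.36 and 5.44 in controls and 4.46 and 4.40 with stimulation, a change of -0.97 ± 0.13. In a limma fit of every probe set past the filter on its own, that set passed (adjusted p = 0.0280 over 27022 probe sets), while the former did not (adjusted p = 0.165). That fit called 3.85% of all probe sets and 2 of the members' 49, this set and that of Kcng2. Without control 1, control 2, stimulated 1 or stimulated 2 the adjusted p of the dimmest set was 0.132, 0.172, 0.0923 and 0.0742. The probe sets of Kcnk3 thus disagreed in size by over 0.5 on the log2 scale, and Kcnk3 was the only member in which sets past the filter did. The other Kcnk genes tested had changes of -0.23 (Kcnk7) to 0.074 (Kcnk4).

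**Figure D3:**
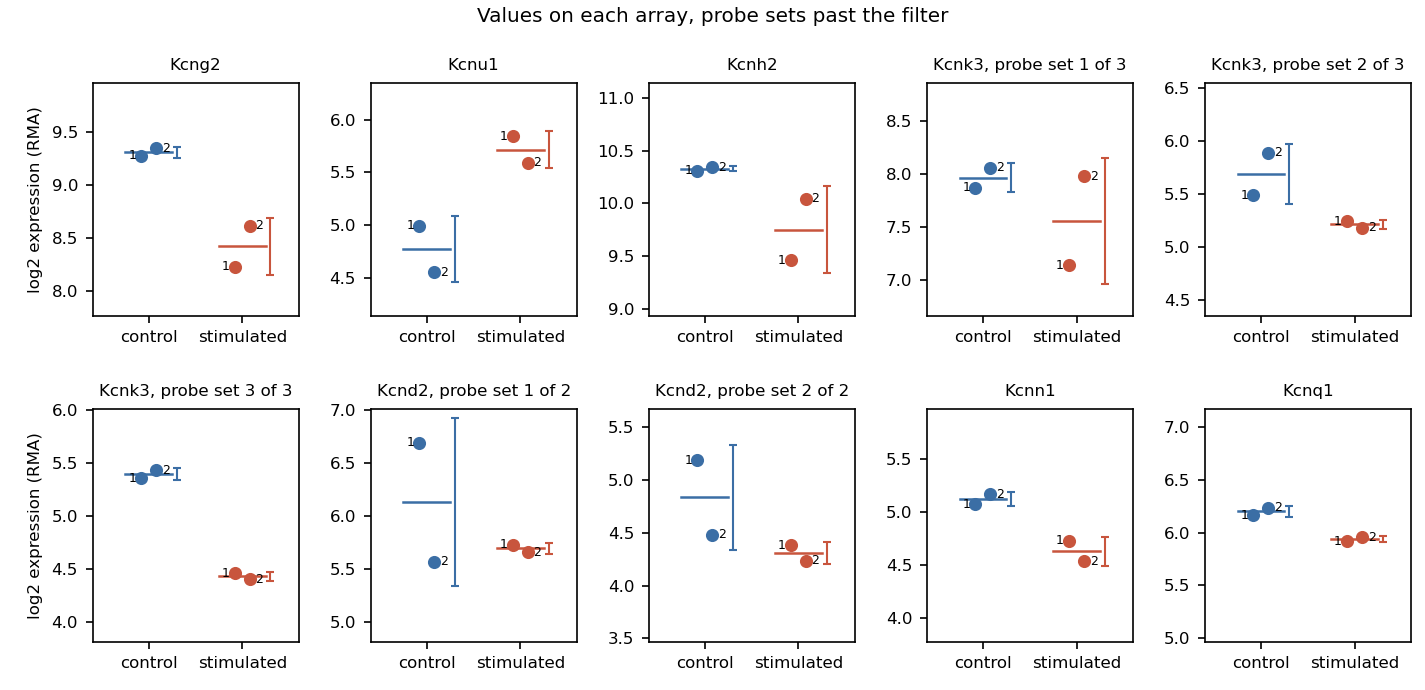
Log2 expression (vertical axis) on each array for the probe sets past the filter of Kcng2, Kcnu1, Kcnh2, Kcnk3, Kcnd2, Kcnn1 and Kcnq1; points are arrays labelled 1 and 2, horizontal lines are group means and bars are the SD of 2 arrays. The vertical axes span the same range. Stimulated 1 lies below stimulated 2 for Kcng2, Kcnh2 and the brightest Kcnk3 probe set, and above it for Kcnn1 and the other Kcnk3 probe sets. Control 1 lies above control 2 for both Kcnd2 probe sets.

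Among the calcium-activated channels, Kcnn1 read 5.07 and 5.17 in controls and 4.73 and 4.53 with stimulation. The groups did not overlap, and the change of -0.49 ± 0.13 missed the threshold (limma adjusted p = 0.0885). The control mean of 5.12 lay above the sensory receptor level, and the stimulated mean of 4.63 and the mean over all arrays of 4.87 below it. Its dimmer probe set, below the filter, overlapped between groups. Kcnn3 read 4.57 and 4.78 in controls and 4.85 and 4.84 with stimulation, a change of 0.17 ± 0.13. Kcnn4, the intermediate-conductance channel, and Kcnma1, the large-conductance channel, had changes of 0.037 ± 0.12 and 0.034 ± 0.12. For Kcnma1 only 1 of 5 probe sets passed the filter.

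Kcnu1, the called rise, encodes a relative of Kcnma1 that opens with alkaline pH in sperm. Its single probe set (1422838_at) read 5.00 and 4.56 in controls and 5.84 and 5.59 with stimulation. Means were 4.78 ± 0.31 and 5.72 ± 0.18 (SD, n = 2), so the control mean lay below the sensory receptor level and the stimulated mean above it. The change was 0.94 ± 0.19 (limma adjusted p = 0.0475). The call was lost with no filter on low values (adjusted p = 0.0533) and with every probe set tested on its own (adjusted p = 0.0552). The adjusted p was 0.114 without control 1, 0.211 without control 2, 0.188 without stimulated 1 and 0.0913 without stimulated 2, with changes of 0.72 to 1.16. Kcnt1, a sodium-activated channel of the same group, had a change of -0.075 ± 0.13.

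No accessory subunit passed the test, against 5.53% of all genes tested, and the 8 tested split evenly, 4 higher and 4 lower. By limma 0 of them were below an unadjusted p of 0.05 as well, against 25.6% of all genes tested. With 8 genes, these counts were not compared by a test. Kcnab2, a beta subunit of Kcna channels, read between 6.80 and 6.85 on the 4 arrays, a change of 0.019 ± 0.12. Its other probe set had a change of -0.063. Kcnab3 read 5.13 on both control arrays and 5.05 and 4.98 with stimulation (-0.11 ± 0.12). Kcne4, which inhibits several voltage-gated channels, read 5.00 and 4.83 in controls and 5.28 and 5.00 with stimulation. Its change was 0.23 ± 0.15, and the groups just failed to overlap.

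Of the Kcnip genes, Kcnip1 read 6.04 and 5.56 in controls and 5.62 and 5.70 with stimulation, a change of -0.14 ± 0.18. Kcnip3, which also acts as a transcriptional repressor, had a change of 0.028 ± 0.12. Kcnmb4, a subunit of the large-conductance channel, read 5.44 and 5.43 in controls and 5.13 and 5.31 with stimulation (-0.21 ± 0.13). Kcnq1ot1, a long non-coding RNA antisense to Kcnq1, had 1 of 6 probe sets past the filter, with a change of 0.17 ± 0.12.

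Across the 37 members tested, 22 were lower and 15 higher, with a median change of -0.036, against -0.0056 for all genes tested. The median size of a change was 0.11 for the members and 0.19 for all genes. Levels were lower for the 69 members, with a median of 4.51 against 6.28 for all 18193 genes. Among genes above the sensory receptor level alone, the median size was 0.15 for members and 0.21 for all. The groups did not overlap in 16 of the 37 members, 10 lower and 6 higher. Over all genes tested this was so for 55.3%, 27.7% lower and 27.6% higher. Above the sensory receptor level it was so for 45.8% of members and 57.8% of all genes. For 32 of the 37 the 95% interval of the change lay within 1 on the log2 scale in either direction, so a 2-fold change lay outside it. This does not exclude a 2-fold change in RNA. The 32 include all 13 members between the filter and the sensory receptor level, where a change can be understated. The spread behind the intervals may also be technical. Kcng2, Kcnu1, Kcnh2, Kcnk3 and Kcnd2 had wider or more distant intervals. With 2 arrays per group the smallest two-sided p of an exact permutation test is 0.333, and none was run.

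**Figure D4:**
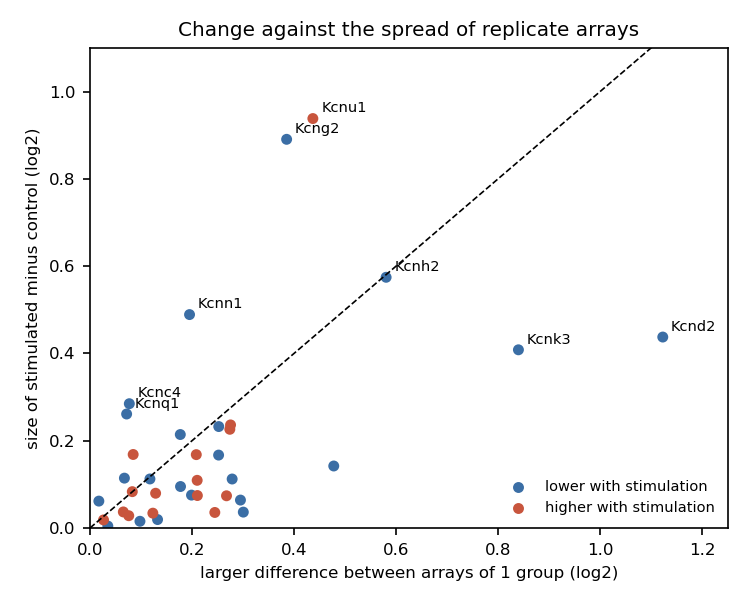
Size of the change between groups (vertical axis) against the larger of the differences between the 2 arrays of 1 group (horizontal axis), both on the log2 scale, for the 37 tested genes; blue genes were lower and red genes higher with stimulation, and the dashed line marks equality. Among the labelled genes, Kcng2, Kcnu1, Kcnn1, Kcnc4 and Kcnq1 lie above the line, as do some unlabelled genes with small changes. Kcnh2 lies close to the line, and Kcnk3 and Kcnd2 lie far to the right of it.

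The median changes of the subfamilies were -0.30 for Kcnd (2 genes), -0.17 for Kcnc (2), -0.10 for the silent subunits (4) and -0.066 for Kcnk (6). They were 0.016 for Kcnh (4), 0.037 for Kcnn (3), 0.034 for Kcnma1 with Kcnt1 and Kcnu1 (3) and -0.064 for Kcnip (3). For Kcna (3), Kcne (2) and Kcnab (2) they were 0.080, 0.15 and -0.048. Differences between subfamilies were not tested. With 1 array left out the medians ranged from -0.65 to 0.041 for Kcnd, from -0.041 to 0.035 for Kcnh and from -0.10 to 0.048 for Kcnip. They ranged from -0.22 to 0.010 for the silent subunits, from -0.028 to 0.096 for Kcnma1 with its relatives and from -0.13 to -0.0029 for Kcnk. A filter at the 60th percentile left only 2 Kcnh genes, with a median of -0.29, and 1 Kcnk gene, Kcnk3, at -0.41.

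Of the inward rectifier genes (Kcnj), 9 of 15 were tested and 0 passed by limma, with 3 at an unadjusted p below 0.05 and a median of -0.16. Of the voltage-gated calcium channel subunits, 17 of 24 were tested and 1 fell, with a median of -0.12. Of the sodium and pacemaker channels, 4 of 13 were tested and 1 fell, with a median of -0.061. Over all genes tested, limma called 5.53%, 1.62% as lower, and 25.6% had an unadjusted p below 0.05. Differences between these families and the members were not tested.

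A list of 43 genes known to bind or regulate these channels held 35 with a probe set and 31 past the filter. By limma 0 passed, 9 of the 31 had an unadjusted p below 0.05, against 25.6% of all genes tested, and the median change was -0.069. The smallest p belonged to Prkaca, the catalytic subunit of protein kinase A (-0.58 ± 0.12, limma adjusted p = 0.0541, other probe set -0.59). Cav1, a scaffold of caveolae, had a change of -0.70 ± 0.16, Sgk1, a kinase that raises channel density at the surface, one of 0.97 ± 0.24, and Csnk2a2, a kinase bound to Kcnn channels, one of 0.48 ± 0.12. Limma adjusted p for these 3 lay between 0.0605 and 0.0754.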

How the data were processed

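The measurements were log2 expression values of total RNA from 4 samples of HL-1 cells, 1 Affymetrix array each, in 2 groups of 2. The authors deposited log2 values for which the submitters' processing notes name RMA. That method subtracts a background estimate, brings the arrays to 1 distribution and gives 1 value per probe set. Which RMA version and settings were used is not given in the sources used here. Array medians were 4.95 to 5.01. Precision is limited by having 2 arrays in each group.

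Of 45101 probe sets, 64 were manufacturer's controls. Of the rest, 34945 had 1 gene symbol, 932 several and 9160 none in the annotation used. All 69 members were found by gene ID in a RefSeq table of GRCm38.p6, and 0 symbols differed. Each gene was represented by its single-symbol probe set with the highest mean. The 13058 of 18193 genes at or above 4.39, the 40th percentile, entered a two-sided test in limma 3.58.1 (R 4.3.3; lmFit and eBayes). P-values were adjusted over all of them by Benjamini-Hochberg, with a threshold of 0.05. The fit was tested on simulated data. Intervals are 95% intervals of the same fit.

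The members, lists and tests were chosen with earlier results of these data known. Genes named are those called, the highest and the smallest p per subfamily, a set of cardiac channels, and members with discordant probe sets; other members are given where they complete a subfamily. Kcnd3's per-array values were described after they were seen. The motifs and marker counts are descriptions. Alternatives changed the filter, the choice of probe set, the normalization, the variance model, the arrays included and the replicate block.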

Additional observations from a re-analysis of the deposited data

How the results depend on the processing

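Kcng2 was called in all 9 alternatives that kept the 4 arrays, with changes of -0.89 to -0.88, and Kcnu1 in 5 of 7, leaving out the sensory receptor level as filter, which it passed only through its stimulated arrays. The count of members called, 2 at the settings used, was 1 with no filter and 1 with the 60th percentile filter, under which Kcnu1 was not tested. It was 0 with any 1 array left out, where 20 to 113 of all genes passed in place of 722. In such fits the lone array of a group is assumed to vary like the other group. The members' median of -0.036 became -0.17 with the 60th percentile filter, -0.069 with the sensory receptor level as filter, -0.059 with the mean of all probe sets, -0.064 with every probe set on its own, and -0.041 to 0.0042 with 1 array left out. The first 4 of these settings also change which genes or probe sets enter.

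With 1 array left out the sign turned for 15 of the 37 members tested, 0 of them called. With the mean of all probe sets the change of Kcnab2 was -0.022 and that of Kcnk3 -0.62 (limma adjusted p = 0.0583 for Kcnk3). Among the members named by rule that turned with 1 array left out, Kcnd2 ranged from -0.999 to 0.12, Kcnk3 from -0.83 to 0.012, Kcnip1 from -0.38 to 0.097, Kcnip2 from -0.21 to 0.084, Kcne1 from -0.031 to 0.18 and Kcnma1 from -0.028 to 0.096. The cause was not tested.

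The labels number the stimulated samples as experiments, and of the controls 1 number stands in a protocol and the other follows accession order. Differences between numbered arrays correlated between groups at r = 0.33 across 13058 genes, which are not independent replicates, and with only 2 pairs this does not show that the numbers pair the samples. The replicate block raised the count of all genes called from 722 to 1345, called the same 2 members and changed no call of a named member. The fits of the dimmest Kcnk3 probe set with 1 array left out were chosen after seeing the data. Signals near background limit what can be seen for the 32 members below the filter.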
